A study of Mus musculus with 26 samples.

Results

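The subject is how the change of mouse embryonic stem cells over 4 days with retinoic acid differed between NAP1L1 knockout and wild-type cells. For each gene the change from day 0 to day 4 in wild-type (WT) cells was subtracted from the same change in the NAP1L1 knockout (fullKO), on the log2 scale. The result, called the difference of changes here, is positive where a gene ended higher, relative to its own starting level, in the knockout than in WT. It rests on 11 of the 26 RNA-seq libraries of the series: 3 of WT at day 0, 3 of WT at day 4, 2 of fullKO at day 0 and 3 of fullKO at day 4. Genes called in the difference of changes were sorted by the WT response. A response was blunted where the knockout moved less far in the WT direction, exaggerated where it moved further, and reversed where both changes were called with opposite signs.

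All libraries came from KH2, a mouse embryonic stem cell line, with the genotype given as wild-type or as NAP1L1 knock-out. The other libraries are day 2 of both genotypes and a knockout of the alpha form of NAP1L1 (alphaKO) on the same days. The fullKO library names share a prefix, so they may come from 1 line or clone, and genotype and line cannot be told apart. No untreated library of a later day is among the samples, so retinoic acid and time in culture cannot be told apart. The labels do not say that replicates were separate cultures, so p-values measure the spread between libraries, which may be technical. Total counts were 13537267 to 18748898 over the 11 libraries, mitochondrial genes took 1.08% to 1.96% of them, and replicates differed from each other by more than sampling noise. Markers of embryonic stem cells fitted the label: their summed level at day 0 was 3482 to 3592 CPM (counts per 1000000 counts of a library, its total scaled by edgeR's TMM factor) in WT and 4755 to 4792 CPM in fullKO. The 11 fibroblast markers also gave signal in every group, which is taken up beside the results it touches.

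NAP1L1 is a histone chaperone: it binds H2A-H2B dimers and helps to place them on DNA and remove them. Embryonic stem cells hold a network of transcription factors around Pou5f1 (Oct4), Nanog and Sox2 that keeps them self-renewing. Retinoic acid binds nuclear receptors, switches on Hox and other patterning genes and brings this network down as cells leave pluripotency. Cells that stop dividing quickly also lower the genes of DNA replication and mitosis, and the p53 pathway raises inhibitors of the cell cycle.

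Nap1l1 itself (ENSMUSG00000058799.16, chromosome 10, 111473223 to 111498150, GRCm38) was measured at 1010, 997 and 1068 CPM in WT at day 0 and 413, 383 and 383 CPM at day 4. In fullKO it stood at 397 and 401 CPM at day 0 and 238, 222 and 221 CPM at day 4. The knockout libraries were the lower ones on both days, with no overlap, yet transcript remained. The deleted sequence is not given in the sources used here. Nap1l1 fell by 1.38 ± 0.04 (SE) on the log2 scale in WT and by 0.81 ± 0.04 in fullKO, a difference of changes of 0.57 ± 0.06 (adjusted p = 4.94e-11).

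The difference of changes was called at an adjusted p under 0.05 for 6480 of 18412 genes tested (35.2%). Of these, 3592 were higher (19.5% of genes tested) and 2888 lower (15.7%). These shares are the background for every count of list members given further on. A stricter rule that also asked for at least 1 on the log2 scale kept 2036 genes (11.1%). The change over 4 days was called for 14251 genes in WT (77.4%; 40.7% higher and 36.7% lower) and 13644 in fullKO (74.1%). All adjusted p-values are from edgeR's quasi-likelihood test with Benjamini-Hochberg adjustment over the genes tested, and errors of log2 values are standard errors of that fit.

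Blunting was the commonest pattern, with 4008 genes (21.8% of genes tested): 2145 that fell in WT and 1863 that rose. Exaggerated responses numbered 1357 (7.37%), of which 890 were rises in WT and 467 falls. Reversed responses numbered 430 (2.34%), with 238 rises in WT and 192 falls. The other 685 called genes (3.72%) had no called change in WT, 365 of them higher and 320 lower. Among blunted genes the knockout made a median of 0.532 of the WT change, and 456 of them had a change of the other sign that was not called. In 1556 blunted genes the knockout made 50% to 75% of the WT change on the log2 scale.

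**Figure D1:**
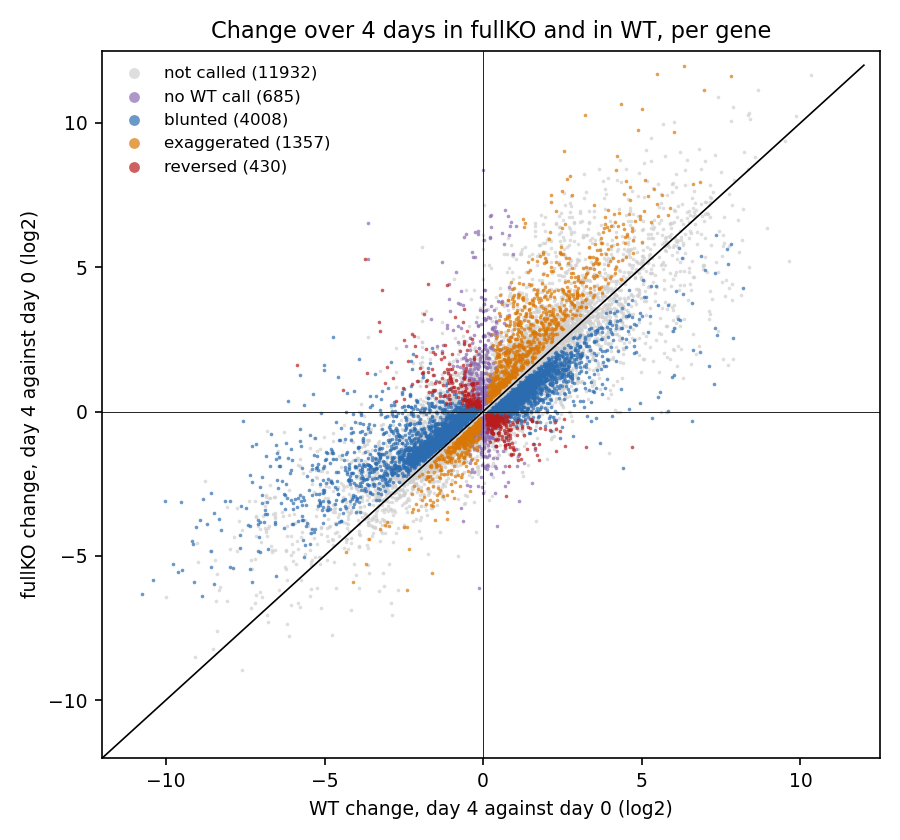
Each point is a gene, with its log2 change from day 0 to day 4 in WT on the x axis and in fullKO on the y axis, coloured by how its response was sorted; the diagonal marks equal change. The 4008 blunted genes lie between the diagonal and the horizontal line at 0 or just beyond it, the 1357 exaggerated genes lie beyond the diagonal, and the 430 reversed genes lie in the corners where the signs differ. Genes with no count in a group are drawn at their fitted value, which is not a bound.

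Sorted groups differed in when the knockout departed from WT. Blunted falls started near the WT level, at a median difference between fullKO and WT of -0.08 (log2) at day 0, and ended at 0.49 at day 4. Blunted rises ran from 0.16 to -0.40. Exaggerated rises were the opposite case: they started at a median of -0.96 at day 0 and ended level with WT, at 0.02. Levels of both days entered the sorting, so these medians are a description. Exaggerated falls ran from 0.18 to -0.19, reversed rises from 0.37 to -0.45 and reversed falls from -0.61 to 0.58, passing from one side of WT to the other.

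The day 2 libraries were in none of the comparisons used for sorting, although they shared in the filter, scaling and spread of the fit. At day 2, 47.6% of all genes tested differed between the genotypes: 23.8% were higher in fullKO than in WT and 23.8% were lower. Of the 2145 blunted falls, 1332 (62.1%) were higher in fullKO at day 2 and 158 (7.37%) lower. Of the 1863 blunted rises, 1072 (57.5%) were lower and 181 (9.72%) higher. Exaggerated rises were lower at day 2 in 523 of 890 cases (58.8%), the side on which they stood at day 0. Reversed genes were closer to the background: 94 of 238 reversed rises (39.5%) were lower and 70 of 192 reversed falls (36.5%) higher.

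**Figure D2:**
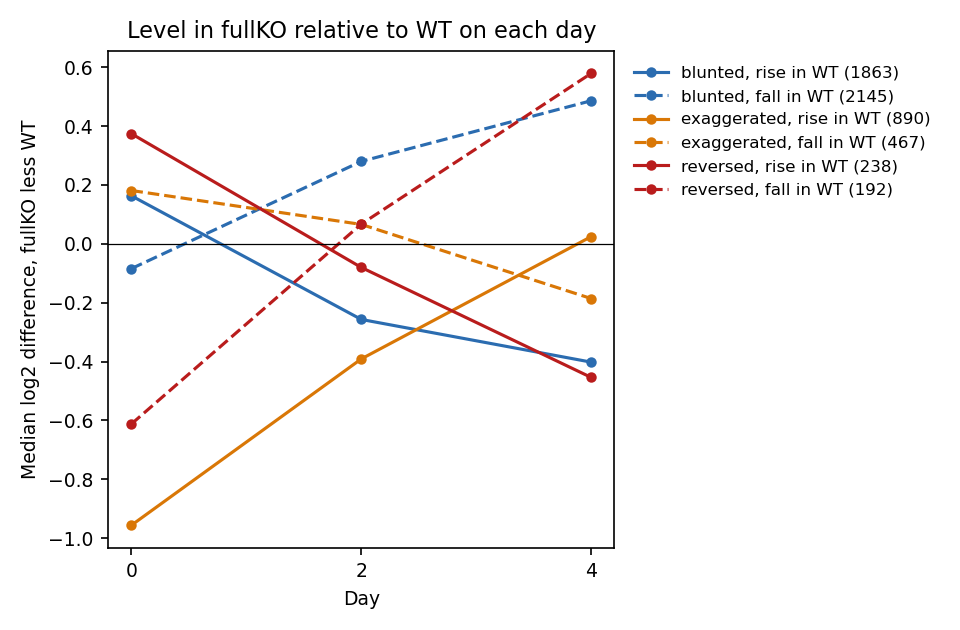
The median log2 difference between fullKO and WT is plotted for each sorted group (y axis) on days 0, 2 and 4 (x axis); solid lines are genes that rose in WT and dashed lines genes that fell, and the number of genes is given in brackets. Day 0 and day 4 values enter the sorting and are shown as a description, and the day 2 values come from other libraries. The exaggerated rises start at -0.96 and end at 0.02, whereas the blunted groups start near 0 and move apart.

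Genes of the pluripotency network fell in both genotypes and fell less far in fullKO. Of 12 general pluripotency genes tested, 10 were higher in the difference of changes and none lower, with a median of 1.33 beside 0.0683 over all genes. All 12 fell in WT. The 2 not called were Dppa4, a chromatin-bound pluripotency factor (0.20 ± 0.10, adjusted p = 0.114; called without WT day 4 replicate 1 or fullKO day 4 replicate 1, at 0.29 and 0.27), and Trim71, an RNA-binding ubiquitin ligase (0.05 ± 0.07, adjusted p = 0.608).

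Pou5f1 (ENSMUSG00000024406.16, chromosome 17, 35506018 to 35510772, GRCm38) encodes Oct4, the factor without which the network collapses. WT libraries held 615, 620 and 611 CPM at day 0 and 2.83, 5.30 and 2.99 CPM at day 4. The fullKO libraries held 662 and 648 CPM at day 0 and 40.6, 43.8 and 42.6 CPM at day 4. Starting levels were alike within 0.09 on the log2 scale (adjusted p = 0.216), and all 3 knockout libraries of day 4 stood above every WT library of that day. Pou5f1 fell by 7.36 ± 0.08 in WT and by 3.95 ± 0.06 in fullKO, a difference of 3.41 ± 0.12 (adjusted p = 2.48e-26). At day 2 it was at 24.9, 25.9 and 23.3 CPM in WT and 123, 115 and 121 CPM in fullKO, so the gap was already open. Utf1, a chromatin protein of undifferentiated cells (2.59 ± 0.18), L1td1, an RNA-binding protein (2.10 ± 0.09), and Dnmt3l, the cofactor of de novo DNA methyltransferases (2.40 ± 0.11), were blunted falls as well.

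The naive pluripotency genes, which mark the ground state of the preimplantation epiblast, split. Of 16 tested, 12 were higher and 4 lower, with a median of 2.44. Measured from day 2, 7 were higher and 4 lower, with a median of 0.458. Nanog was at 237, 230 and 219 CPM in WT at day 0 and 6.53, 6.73 and 5.34 CPM at day 4. In fullKO it was at 549 and 539 CPM at day 0 and 131, 134 and 138 CPM at day 4, above WT at both ends. It fell by 5.21 ± 0.07 in WT and by 2.02 ± 0.05 in fullKO (difference 3.19 ± 0.10, adjusted p = 1.25e-27). Esrrb, an orphan nuclear receptor that sustains self-renewal, gave 2.72 ± 0.09. Fgf4, the growth factor that Oct4 and Sox2 switch on, started level in both genotypes (154 to 181 CPM in WT, 170 and 193 CPM in fullKO). It ended at 0.435 to 0.655 CPM in WT and 8.98 to 12.1 CPM in fullKO (difference 4.17 ± 0.25, adjusted p = 6e-18). Nr5a2, a nuclear receptor that can stand in for Oct4 in reprogramming (3.80 ± 0.21), and Prdm14, a repressor of differentiation genes (3.42 ± 0.44), behaved likewise. Prdm14 had 5 counts in WT at day 4, and from day 2 its difference was 0.61 and was not called. Dppa3, a maternal factor that guards imprints, was lower in fullKO at day 0 (20.2 and 17.3 CPM against 48.7 to 56.1) and higher at day 4 (2.38 to 4.29 CPM against 0.238 to 0.46), and its difference of 4.84 ± 0.34 joins both.

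The 4 naive genes that were lower with day 0 as the start were Klf4, Klf5, Socs3 and Tbx3. Klf4, a reprogramming factor downstream of LIF signalling, was at 151, 166 and 153 CPM in WT at day 0 and at 394 and 434 CPM in fullKO. At day 4 the groups overlapped, at 28.5, 29.7 and 24.7 CPM in WT and 23.6, 26.2 and 28.2 CPM in fullKO. Its larger fall (difference -1.49 ± 0.10, adjusted p = 8.69e-17) thus ran from a higher start to the same end. Klf5 crossed over: it was higher in fullKO at day 0 (301 and 319 CPM against 201 to 214) and lower at day 4 (51.2 to 60.8 CPM against 96.9 to 108), a difference of -1.48 ± 0.08. Socs3, the feedback inhibitor of LIF and STAT3 signalling, started level and ended lower (-1.38 ± 0.11). Tbx3, a T-box repressor, rose in WT by 1.63 and in fullKO by 0.42 on the log2 scale.

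All 11 genes of the formative and primed states, through which the epiblast passes before it forms germ layers, were higher, with a median of 1.54. The median difference of the list between fullKO and WT was -1.62 at day 0 and 0.754 at day 4, so it started below WT and ended above. Measured from day 2, 4 of the 11 were higher and 4 lower, with a median of 0.0412. Otx2, a homeobox factor of the primed state, fell to near nothing in WT (85.8 to 108 CPM at day 0, and 3 counts over the 3 libraries at day 4). In fullKO it was at 45.3 and 42.5 CPM at day 0 and 0.677 to 0.811 CPM at day 4. From the counts alone, Otx2 fell 1530-fold in WT (95% counting interval 524 to 7430) and 58.3-fold in fullKO (42.7 to 81.6). Foxd3, a forkhead repressor needed at this transition, was a blunted fall as well (1.94 ± 0.29), although measured from day 2 it gave -1.27. Fgf5 and Sox3, marker genes of the primed epiblast, were reversed and are described with that group. Cdh2, or N-cadherin, was the only one of the 11 to rise in WT, and it rose further in fullKO (0.65 ± 0.15, adjusted p = 0.000506).

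The enzymes of DNA methylation followed the network. Of 9 genes tested, 8 were higher and none lower, with a median of 0.68; Tet3 was not called. Dnmt3b, the main de novo methyltransferase of the epiblast, was at 1208, 1190 and 1187 CPM in WT at day 0 and at 394 and 362 CPM in fullKO. At day 4 the order had turned, with 29.9, 27 and 28.3 CPM in WT and 51.7, 52.1 and 48.8 CPM in fullKO. Its difference of 2.50 ± 0.08 (adjusted p = 1.25e-27) was therefore made at both ends. Dnmt3a gave 1.54, but with day 2 in place of day 0 as the start it gave -0.92.

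**Figure D3:**
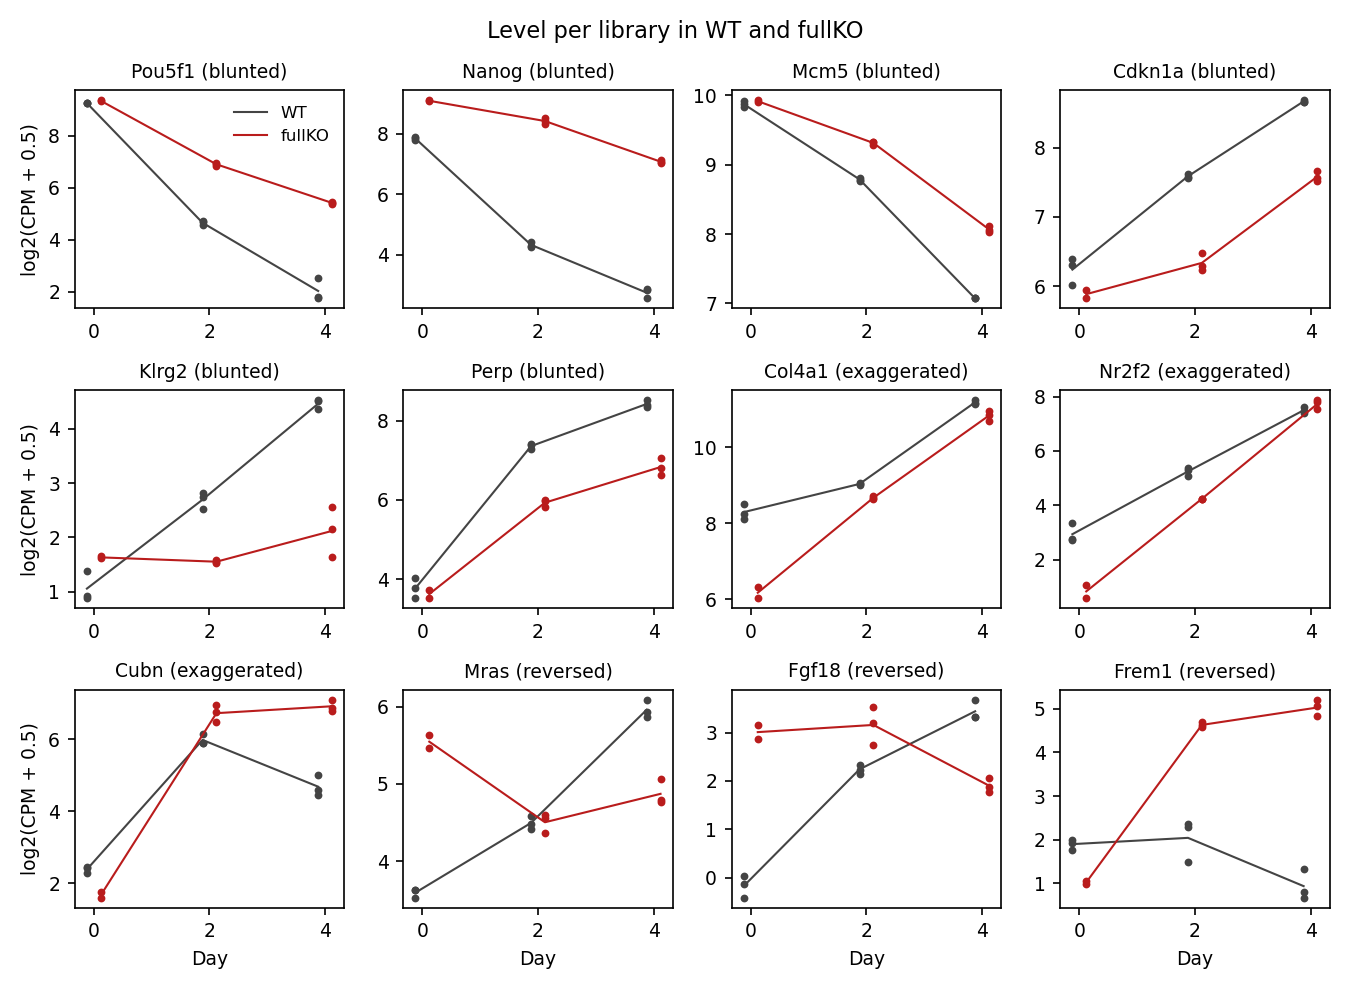
Each panel shows 1 gene, with log2(CPM + 0.5) on the y axis and the day on the x axis; points are libraries, lines join group means, WT is grey and fullKO red, and the word in brackets is how the response was sorted. Pou5f1 and Mcm5 start together and separate by day 2, Col4a1 and Nr2f2 start apart and draw closer, and Mras and Fgf18 cross.

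Replication and cell cycle genes fell in WT without exception in both lists and fell less far in fullKO. Of 20 genes of the G1/S transition and DNA replication, 19 were higher and none lower, with a median of 0.65; Ccne2, a cyclin that drives entry into S phase, was not called. Of 18 genes of G2 and mitosis, 17 were higher and none lower, with a median of 0.47; Tpx2, a spindle factor, was not called. At day 2, 16 of the 20 and all 18 were above WT, against 23.8% of all genes.

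Promoters of the 3 replication genes with E2F letters among those named, and of 2 mitotic genes with CCAAT letters, are shown because E2F and NF-Y factors are textbook regulators of these groups. They are 300-base windows from RefSeq on GRCm38.p6, from 250 bases before to 50 after a start site, written 5′ to 3′ on the gene's strand. Capitals mark TTTCCCGC or TTTGGCGC, or their reverse complements, in the first 3, and CCAAT or its reverse complement in the last 2.
Pola1, chrX:93632106-93632405, minus strand: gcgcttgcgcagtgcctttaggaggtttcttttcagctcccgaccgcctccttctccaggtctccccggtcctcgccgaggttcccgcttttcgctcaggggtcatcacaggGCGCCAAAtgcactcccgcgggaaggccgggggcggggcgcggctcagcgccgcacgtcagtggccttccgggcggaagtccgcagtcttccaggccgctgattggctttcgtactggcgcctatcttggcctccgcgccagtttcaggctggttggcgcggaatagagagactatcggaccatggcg
Mcm5, chr8:75109259-75109558, plus strand: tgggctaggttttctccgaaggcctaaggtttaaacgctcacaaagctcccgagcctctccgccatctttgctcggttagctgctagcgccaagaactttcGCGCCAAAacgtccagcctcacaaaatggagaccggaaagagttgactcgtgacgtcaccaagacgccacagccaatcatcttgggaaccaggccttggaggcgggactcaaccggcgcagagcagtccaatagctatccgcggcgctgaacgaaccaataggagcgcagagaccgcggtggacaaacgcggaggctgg
Cdt1, chr8:122567765-122568064, plus strand: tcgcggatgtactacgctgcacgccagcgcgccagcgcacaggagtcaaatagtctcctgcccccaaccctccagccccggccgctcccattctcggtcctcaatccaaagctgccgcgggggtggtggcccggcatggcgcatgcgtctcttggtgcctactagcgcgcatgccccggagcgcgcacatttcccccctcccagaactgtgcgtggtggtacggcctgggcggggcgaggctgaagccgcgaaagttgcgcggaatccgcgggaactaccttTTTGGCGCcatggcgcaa
Bub1, chr2:127831810-127832109, minus strand: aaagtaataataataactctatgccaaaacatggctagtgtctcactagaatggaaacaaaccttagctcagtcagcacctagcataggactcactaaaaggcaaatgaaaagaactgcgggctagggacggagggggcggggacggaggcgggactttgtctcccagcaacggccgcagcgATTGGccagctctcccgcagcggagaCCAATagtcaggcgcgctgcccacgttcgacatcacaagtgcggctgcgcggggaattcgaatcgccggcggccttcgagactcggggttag
Kif11, chr19:37376132-37376431, plus strand: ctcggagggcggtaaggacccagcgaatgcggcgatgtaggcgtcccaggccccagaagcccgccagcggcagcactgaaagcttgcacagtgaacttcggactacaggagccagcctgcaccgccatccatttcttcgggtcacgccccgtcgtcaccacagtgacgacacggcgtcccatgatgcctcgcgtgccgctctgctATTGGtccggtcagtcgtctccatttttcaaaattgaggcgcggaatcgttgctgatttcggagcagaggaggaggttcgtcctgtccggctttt
One or the other E2F form, on either strand, was in 7 of the 16 G1/S promoters found in the table (43.8%) and in none of the 14 mitotic ones, beside 353 of 12602 promoters of tested genes (2.8%). It was in 98 of 1621 promoters of blunted falls (6.05%) and 38 of 1456 of blunted rises (2.61%). CCAAT on either strand was in all 14 mitotic promoters found and in 12 of the 16 G1/S promoters, beside 4842 of 12602 (38.4%). These shares describe letters in the windows and nothing more.

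Mcm5 (ENSMUSG00000005410.6), a subunit of the replicative helicase, showed the pattern of its group. It was at 965, 935 and 914 CPM in WT and 974 and 959 CPM in fullKO at day 0, where the groups overlapped. At day 4 it was at 134 CPM in each WT library and 261, 276 and 267 CPM in fullKO. The difference of changes was 0.96 ± 0.06 (adjusted p = 1.48e-18). Pola1, the catalytic subunit of DNA polymerase alpha, started at 177 to 180 CPM in WT and 182 and 188 CPM in fullKO and ended at 28.3 to 29.3 CPM and 58.3 to 62.2 CPM (1.01 ± 0.08). Cdt1 (0.90 ± 0.07) and Cdc6 (0.96 ± 0.09), which load the helicase at origins, were level at day 0 and separated at day 4.

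Bub1, the kinase of the spindle checkpoint, was at 227, 236 and 222 CPM in WT and 219 and 227 CPM in fullKO at day 0. At day 4 it was at 52.9, 52.3 and 54.1 CPM in WT and 90.4, 93.5 and 91.7 CPM in fullKO (0.82 ± 0.07, adjusted p = 5.36e-14). Kif11, the motor that separates spindle poles, gave 0.77 ± 0.06, and Mki67, the proliferation antigen Ki-67, gave 0.75 ± 0.07. In bulk libraries, a larger share of dividing cells and more of these transcripts per cell cannot be told apart.

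Histone chaperones, the family to which NAP1L1 belongs, were higher in 15 of 28 genes tested and lower in 1, with a median of 0.19. The gene lower was Ubn1, of the HIRA complex (-0.33). Chaf1b, a subunit of the CAF-1 complex that deposits new H3-H4 at replication forks, was at 136 to 152 CPM in WT and 141 and 144 CPM in fullKO at day 0. It ended at 16.8, 19.9 and 22.1 CPM in WT and 41.2, 46.1 and 42.9 CPM in fullKO (1.17 ± 0.09, adjusted p = 4.23e-14). Nasp, which escorts H3-H4, and Anp32e, which removes H2A.Z, were blunted falls too (0.77 ± 0.06 and 0.63 ± 0.07). Of the nearest relatives of Nap1l1, Nap1l4 was not called (0.01). Nap1l2 was higher by 0.77, but it was not called without WT day 0 replicate 3 (0.65) or fullKO day 0 replicate 1 (0.50). Among 14 histone variant genes, 5 were higher and 3 lower. The lower ones were H2afy and H2afy2, which encode macroH2A (-0.81 ± 0.08 and -0.38 ± 0.10), and H2afj (-0.58 ± 0.12). The 5 higher were H2afz, H2afv, H3f3a, Cenpa and H1f0, at 0.28 to 0.43, and H3f3a was not called without fullKO day 4 replicate 1 (0.23).

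Polycomb genes were higher in 11 of 21 cases, with 2 lower, Rnf2 (-0.38) and Phc2 (-0.20). Phc2 was not called without any 1 of WT day 0 replicates 1 and 3, WT day 4 replicate 3, both fullKO libraries of day 0 and fullKO day 4 replicate 1 (-0.17 to -0.19). Phc1, a subunit of the PRC1 complex (1.13 ± 0.06), and Jarid2, an accessory factor of PRC2 (1.09 ± 0.07), fell less far from day 0. Measured from day 2 the value was -0.0044 for Phc1 and -0.01 for Jarid2.

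Targets of p53 rose less in fullKO. Of 20 tested, 16 were lower and 2 higher, with a median of -0.49, and 12 of the 16 were blunted rises. At day 2, 17 of the 20 were below WT and 2 above, against 23.8% of all genes each way. Cdkn1a, or p21, the inhibitor that halts the cell cycle (chromosome 17, 29090976 to 29100727), was at 64.4, 83.2 and 78.5 CPM in WT at day 0 and 404, 410 and 404 CPM at day 4. The fullKO level was 61.1 and 56.0 CPM at day 0 and 183, 189 and 202 CPM at day 4. It rose by 2.43 ± 0.08 in WT and by 1.71 ± 0.10 in fullKO (difference -0.72 ± 0.12, adjusted p = 5.62e-06). Its day 2 libraries were the furthest apart, at 189 to 196 CPM in WT and 74.8 to 88.3 CPM in fullKO.

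Perp, a desmosomal protein and effector of p53, started at 11 to 15.8 CPM in WT and 11 and 12.8 CPM in fullKO and ended at 325 to 366 CPM and 98.5 to 133 CPM (-1.42 ± 0.19, adjusted p = 3.65e-08). Mdm2, the ligase that degrades p53, gave -0.78 ± 0.09. Ddit4, an inhibitor of mTOR signalling, gave -1.16 ± 0.11 and did not rise by a called amount in fullKO (-0.09). Pmaip1, the cell death protein NOXA, was reversed: it rose from 122 to 134 CPM to 174 to 188 CPM in WT and fell from 118 and 131 CPM to 67.9 to 79.2 CPM in fullKO (-1.22 ± 0.09). Sesn2 was reversed as well (-0.77). The 2 members that were higher were Sesn1, which went from 24.3 and 23.6 CPM to 52.6 to 56.8 CPM in fullKO and stayed at 21.4 to 25.6 CPM in WT (1.21 ± 0.11), and Fas, the death receptor (1.15 ± 0.46, adjusted p = 0.0483). Fas was not called without any 1 of 9 of the 11 libraries (0.85 to 1.55), all but WT replicate 1 of day 0 and of day 4. With day 2 in place of day 0, 4 of the 20 were higher and 3 lower, and Cdkn1a gave 0.17, so most of the departure of this list was made before day 2.

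Immediate-early and heat shock genes were lower in 8 of 16 cases, with 3 higher. The 3 higher were Jun (1.31), Myc (0.93) and Ier2 (0.31, not called without fullKO day 0 replicate 2, at 0.24). Hspb1, a small heat shock protein, was at 103, 110 and 104 CPM in WT at day 0 and 197, 187 and 207 CPM at day 4. In fullKO it went the other way, from 152 and 151 CPM to 70.5, 67.0 and 75.6 CPM (-2.0 ± 0.09, adjusted p = 1.05e-22). Fos, an AP-1 subunit, gave -1.78 ± 0.29. Atf3, a stress-induced factor, began at 5.0 and 6.93 CPM in fullKO against 1.17 to 1.58 CPM in WT and ended at 21.9 to 28.9 CPM against 34.3 to 40.2 CPM (-2.75 ± 0.26). Measured from day 2 its difference was 0.54, the other direction.

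Among epithelial genes 6 were lower and 3 higher of 14. The 3 higher were Grhl2, Epcam and Esrp1. Krt8, a keratin of simple epithelia, rose from 5.96, 7.01 and 6.34 CPM to 781, 702 and 746 CPM in WT and from 11 and 13.1 CPM to 474, 455 and 564 CPM in fullKO (-1.48 ± 0.19). Cldn4, a tight junction protein, gave -1.56 ± 0.10, and Dsp, the desmosomal plaque protein, -1.09 ± 0.16. The median of the list was 0.0199. From day 2 to day 4, 11 of 14 were higher and none lower, with 0.47 for Krt8 and 0.82 for Dsp, and Cldn4 was not called (0.22). At day 2 itself 13 of the 14 were below WT, against 23.8% of all genes.

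Outside the lists, the largest blunted rises included Klrg2 and Nkx2-5. Nkx2-5, a cardiac homeobox factor, rose from under 0.5 CPM to 13.4 to 14.4 CPM in WT and from 0.594 and 0.654 CPM to 3.48 to 6.26 CPM in fullKO (-3.12 ± 0.62). Klrg2, a lectin-like membrane protein, gave -3.13 ± 0.36.

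Exaggerated rises included 8 of 20 retinoic acid response genes, 7 of 15 anterior Hox genes and 9 of 23 posterior Hox genes. Over all genes tested they were 890 of 18412. Of the 20 retinoic acid genes, 11 were higher and 1 lower, with a median of 0.64; the lower one was Tgm2, a transglutaminase (-1.05 ± 0.22). Nr2f2, the nuclear receptor COUP-TFII (ENSMUSG00000030551.14), was at 6.02, 9.72 and 6.20 CPM in WT at day 0 and 1.61 and 0.991 CPM in fullKO. At day 4 the groups overlapped, at 167, 178 and 198 CPM in WT and 234, 222 and 186 CPM in fullKO. The difference was 2.71 ± 0.29 (adjusted p = 1.34e-10). Cyp26b1, which degrades retinoic acid, was lower at day 0 (1.19 and 0.991 CPM against 3.43 to 5.41) and higher at day 4 (228 to 234 CPM against 161 to 176), a difference of 2.34 ± 0.32. At day 2, 12 of the 20 genes were below WT and 3 above, against 23.8% of all genes each way.

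For direct targets with almost no transcript at day 0 the difference of changes has a wide error. Cyp26a1, the first enzyme to be induced by retinoic acid, ended at 171, 178 and 153 CPM in WT and 224, 235 and 226 CPM in fullKO. Its difference of 1.35 ± 1.22 (adjusted p = 0.425) rests on few starting counts, and it was -0.46 without WT day 0 replicate 3. At day 4 all 3 fullKO libraries were above WT, and measured from day 2 the difference was called, at 0.64 (adjusted p = 5.9e-08). Rarb, a retinoic acid receptor, gave -0.21 ± 0.72, and Stra6, the retinol transporter, 0.39 ± 0.51.

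Of 15 anterior Hox genes, 7 were higher and none lower, with a median of 1.57, and all 15 rose in WT. The 7 were Hoxb1, Hoxb2, Hoxb3, Hoxb4, Hoxb5, Hoxc4 and Hoxa5, and Hoxb4 was not called without fullKO day 0 replicate 2 (1.18). All 7 rest on few counts in fullKO at day 0, among them 9 each for Hoxb1, Hoxb4 and Hoxc4, 3 for Hoxb3 and 1 for Hoxa5. Hoxb1 was at 1.23, 1.11 and 1.39 CPM in WT at day 0 and 0.238 and 0.33 CPM in fullKO. It ended at 28.7, 27.4 and 25.6 CPM in WT and 55.3, 52.6 and 54.6 CPM in fullKO, lower at the start and higher at the end (3.10 ± 0.40, adjusted p = 2.11e-08). Hoxb2 and Hoxb5 had no count in fullKO at day 0, against 27 and 33 counts in WT. With those groups given 3 counts in all as a floor, Hoxb2 rose at least 126-fold in fullKO and 20.7-fold in WT (counting interval 14.1 to 31.7), and Hoxb5 at least 254-fold and 45.6-fold (32.3 to 66.5). At day 4 both ended near WT, at 10.2 to 13.8 CPM against 10.7 to 12.3 CPM for Hoxb2 and 23.6 to 24.2 CPM against 26.7 to 35.4 CPM for Hoxb5. From day 2 the difference was 0.38 for Hoxb2, 0.19 for Hoxb3, 0.08 for Hoxb4, 0.01 for Hoxb5 and -0.22 for Hoxa5, and none of these was called. Over the whole list of 15, 5 were higher and 1 lower from day 2.

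Of 23 posterior Hox genes, 10 were higher and 2 lower, with a median of 1.18, or 0.88 with the gene that has a group at 0 set at its floor. The 2 lower were Hoxc13 (-2.08 ± 0.38) and Hoxc12. Hoxc12 rests on 2 to 24 counts a group. It was not called without any 1 of WT day 0 replicates 1 and 2, WT day 4 replicates 1 and 2, fullKO day 0 replicate 2 and fullKO day 4 replicates 1 and 3 (-1.75 to -3.80). Hoxb7 gave 3.12 ± 0.54 and Hoxb13 2.53 ± 0.42. Hoxb7 rests on 6 counts in fullKO at day 0, against 85 in WT, and from day 2 its difference was 0.19 and was not called.

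Dkk1, Foxf1, Foxd2 and Csn3 were also at 0 counts in fullKO at day 0. Dkk1, a secreted Wnt inhibitor, had 19 counts in WT at day 0 and rose to 3.16 to 4.28 CPM in WT and 8.46 to 9.59 CPM in fullKO, at least 95.4-fold in fullKO against 9.37-fold in WT (5.82 to 15.9). Foxf1, a factor of lateral mesoderm, ended at 13.0 to 14.7 CPM in WT and 28 to 30.4 CPM in fullKO, a rise of at least 315-fold against 85.1-fold (42.9 to 198). Foxd2 and Csn3 were not called without some single libraries of day 0. Foxd2 gave 4.57 without WT day 0 replicate 2, and Csn3 gave 3.91 without WT day 0 replicate 3 and 4.88 without either fullKO library of day 0. These fitted values are no bounds: with the floor of 3 counts the difference over all libraries was 1.72 for Foxd2 and 1.14 for Csn3.

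Genes of the primitive endoderm, the extraembryonic layer that lines the blastocyst cavity, were higher in 7 of 18 cases, with 2 lower, Hnf4a and Lama1. Cubn, the endocytic receptor cubilin (ENSMUSG00000026726.10), was at 4.32, 4.86 and 4.95 CPM in WT at day 0 and 23.6, 31.3 and 21.4 CPM at day 4. In fullKO it was at 2.50 and 2.84 CPM at day 0 and 117, 136 and 109 CPM at day 4, with no overlap on either day (3.07 ± 0.31, adjusted p = 5.32e-11). At day 2 the genotypes were closer, at 58.8 to 70.3 CPM in WT and 88.9 to 122 CPM in fullKO, so that Cubn came down in WT after day 2 and stayed up in fullKO. Dab2, an endocytic adaptor, gave 2.12 ± 0.15 from a lower start, and 0.03 when measured from day 2. The defining factors Gata4 (-0.10) and Gata6 (-0.53) were not called. Gata6 was called without WT day 0 replicate 2 (-0.81) and with day 2 as the start (-0.48).

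Col4a1, the basement membrane collagen, was at 276, 364 and 305 CPM in WT at day 0 and at 79.1 and 64.7 CPM in fullKO. It ended at 2414, 2301 and 2251 CPM in WT and 1661, 1985 and 1837 CPM in fullKO, below WT on both days although its rise was steeper (1.78 ± 0.12, adjusted p = 6.56e-17). Measured from day 2 its difference was 0.02 and was not called. Collagens and other matrix genes were higher in 11 of 18 cases, with 5 lower. The lower ones were Nid1, Nid2, Hspg2, Lama1 and Lama5, all of basement membranes, and Nid1 was reversed (-1.74 ± 0.09).

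Fibroblast markers moved with these results. The summed level of the 11 markers was 2274 to 3029 CPM in WT at day 0 and 253.3 to 381.8 CPM in fullKO, and 4167 to 4403 CPM against 1295 to 1565 CPM at day 4. None of the 11 was at 0 in any group, 9 of the 11 were higher in the difference of changes and none was lower. In the longer list of fibroblast and smooth muscle genes, 11 of 18 were higher and 1, Cnn1, lower (-1.16 ± 0.33). Whether the libraries of day 0 held feeder or other fibroblasts is not given in the sources used here, and the part of such cells in the exaggerated rises, the reversed falls and the genes with no WT call was not tested. With day 2, when the markers stood at 1023 to 1129 CPM in WT and 156.2 to 172.1 CPM in fullKO, in place of day 0, 4354 genes were called in place of 6480, and 2726 were shared. The count of genes higher by at least 1 on the log2 scale was then 726 in place of 1432, and that of genes lower by as much 206 in place of 604. Of the 18 fibroblast and smooth muscle genes, 14 were higher and none lower from day 2, with a median of 0.79. The shift of this list was thus present from day 2 as well. The markers still differed between the genotypes at that start, so it cannot test the part of fibroblasts.

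**Figure D4:**
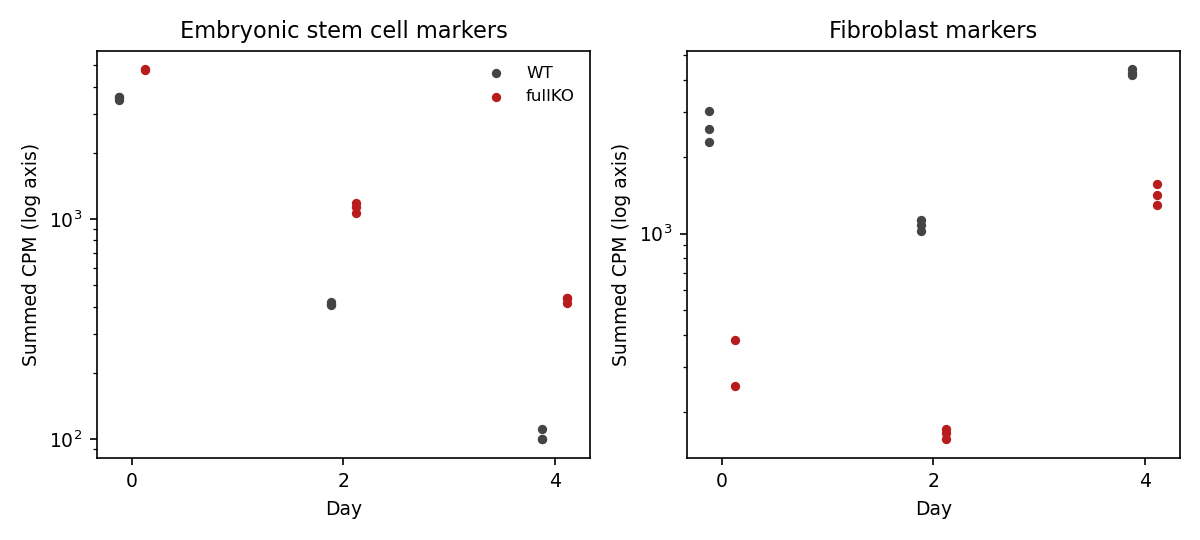
The summed CPM of 8 embryonic stem cell markers (left) and 11 fibroblast markers (right) is shown on a log axis for each library by day, WT in grey and fullKO in red. Fibroblast markers in fullKO lie below WT on every day, most widely at day 0, and stem cell markers in fullKO lie above WT on every day.

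Exaggerated falls were fewer and smaller, with a median of -0.37. Of 18 neuronal genes 4 were lower, Tubb3, Neurod1, Stmn2 and Chga, all exaggerated falls, and 3 higher, Gap43, Elavl3 and Nefl. These counts are near the shares over all genes tested, 15.7% lower and 19.5% higher. Gap43 was not called without fullKO day 0 replicate 2 (0.42), nor Elavl3 without any 1 of WT day 4 replicates 1 and 3, fullKO day 0 replicate 1 and fullKO day 4 replicates 1 and 2 (0.68 to 0.89). Tubb3, a neuronal tubulin, was at 84.1, 89.1 and 82.6 CPM in WT at day 0 and at 234 and 216 CPM in fullKO. At day 4 the groups overlapped, at 48.7, 48 and 52.4 CPM and 48.3, 48.4 and 49.9 CPM (-1.43 ± 0.11, adjusted p = 5.1e-14). Measured from day 2 the difference was -0.03. Neurod1, a proneural factor, instead started level, at 10.9 to 12 CPM in WT and 11.4 CPM in both fullKO libraries, and ended at 3.91 to 4.47 CPM and 1.29 to 1.74 CPM (-1.42 ± 0.28). Outside the list, Krt17, an intermediate filament protein, fell from 24.9 and 29.4 CPM to 0.338 to 0.406 CPM in fullKO and from 6.58 to 7.65 CPM to 0.893 to 2.03 CPM in WT (-3.78 ± 0.42). Bcl3, a cofactor of NF-kB, was at 30 to 35.3 CPM in WT and 45.4 and 51.8 CPM in fullKO at day 0 and at 23.4 to 25.5 CPM and 6.71 to 7.72 CPM at day 4 (-2.31 ± 0.14).

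Reversed genes moved in opposite directions in the genotypes. Among those that rose in WT and fell in fullKO, Mras, a GTPase of the Ras family (ENSMUSG00000032470.17), was at 11, 11.9 and 11.8 CPM in WT at day 0 and 57.7, 60.3 and 67.5 CPM at day 4. In fullKO it was at 49 and 43.6 CPM at day 0 and 27.1, 26.6 and 33 CPM at day 4. WT rose by 2.42 ± 0.11 and fullKO fell by 0.68 ± 0.11 (difference -3.10 ± 0.15, adjusted p = 4.11e-21). At day 2 the genotypes were level, at 20.9 to 23.5 CPM in WT and 20 to 23.6 CPM in fullKO. The fullKO level was thus lowest at day 2 and the WT level rose throughout.

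Pdgfa, a ligand of platelet-derived growth factor receptors, did the same, from 15.2 to 20.9 CPM to 82.0 to 87.5 CPM in WT and from 48.7 and 46.4 CPM to 30.7 to 31.3 CPM in fullKO (-2.92 ± 0.13). Fgf18, a growth factor, was at 0.246 to 0.528 CPM in WT and 8.39 and 6.80 CPM in fullKO at day 0, and at 9.48 to 12.3 CPM and 2.89 to 3.67 CPM at day 4 (-5.93 ± 0.39, adjusted p = 1.12e-16). Mapt, the microtubule protein tau, differed at day 0, at 4.06 to 5.68 CPM in WT and 37.8 and 36.9 CPM in fullKO, and overlapped at day 4 (-3.21 ± 0.19).

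Among genes that fell in WT and rose in fullKO, Frem1, an extracellular matrix protein (ENSMUSG00000059049.14), was at 3.33, 3.50 and 2.90 CPM in WT at day 0 and 1.09, 2.02 and 1.26 CPM at day 4. In fullKO it was at 1.49 and 1.58 CPM at day 0 and 32.8, 36.4 and 27.9 CPM at day 4 (5.53 ± 0.33, adjusted p = 4.62e-18). Sox3, of the primed epiblast, was at 13.8, 11.7 and 10.2 CPM in WT at day 0 and 1.59, 1.85 and 1.55 CPM at day 4. In fullKO it was at 2.62 and 3.63 CPM at day 0 and 6.03, 7.39 and 7.56 CPM at day 4 (4.00 ± 0.28). At day 2 it stood at 8.26 to 11.4 CPM in WT and 20.8 to 24.3 CPM in fullKO, above its level of either other day in the knockout. Fgf5 followed the same course from 1.25 and 1.39 CPM to 5.02 to 5.86 CPM in fullKO and from 6.89 to 7.39 CPM to 1.74 to 2.93 CPM in WT (3.65 ± 0.36).

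Gfra1, a receptor for GDNF, went from 11.9 to 15.1 CPM to 8.05 to 9.13 CPM in WT and from 2.14 and 2.05 CPM to 24.1 to 26.2 CPM in fullKO (4.17 ± 0.24). Dazl, a germ cell RNA-binding protein, started at 3.62 to 5.02 CPM in WT and 5.36 and 5.48 CPM in fullKO and ended at 0.363 to 0.953 CPM and 6.66 to 7.44 CPM (3.12 ± 0.30). It had gone up to 15.5 to 19.1 CPM at day 2 in fullKO. The fibroblast genes Dcn (2.75 ± 0.20) and Pdgfrb (2.96 ± 0.17) were reversed falls too. Dcn, a matrix proteoglycan, was at 45.8 to 63.4 CPM in WT and 6.54 and 6.78 CPM in fullKO at day 0, and the 2 genotypes differed little at day 4 (-0.24 ± 0.12, adjusted p = 0.0939).

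Genes with no called WT change that were higher often had a fullKO level below WT at day 0. Their median difference between the genotypes was -0.72 at day 0 and 0.41 at day 4. Pla2r1, a phospholipase receptor, was at 5.96, 7.32 and 6.80 CPM in WT at day 0 and 8.27, 6.19 and 6.55 CPM at day 4. In fullKO it rose from 0.476 and 0.594 CPM to 9.62, 9.97 and 10.7 CPM (4.17 ± 0.42, adjusted p = 3.46e-11), but from day 2 its difference was 0.20 and was not called. Frzb, a secreted Wnt antagonist, rose from 0.297 and 0.132 CPM to 8.70, 9.35 and 9.76 CPM in fullKO and stayed at 2.87 to 4.12 CPM in WT (5.69 ± 0.46). Its fullKO rise rests on 7 counts at day 0 and was 42.3-fold by counts, with a counting interval of 20.4 to 106. Col3a1, a fibroblast collagen, had the same form (2.53 ± 0.17). Among the genes lower, Serpinb6c, a protease inhibitor, fell from 25.7 and 27.4 CPM to 3.98 to 4.93 CPM in fullKO and stayed at 1.49 to 3.51 CPM in WT (-2.59 ± 0.31). Atg9b, of the autophagy pathway, started level and ended at 2.26 to 3.31 CPM in fullKO against 8.92 to 11.7 CPM in WT (-1.98 ± 0.25).

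The counts of the remaining lists stand beside 19.5% higher and 15.7% lower over all genes tested. FGF and ERK feedback genes were higher in 11 of 17 cases, with 1 lower, Dusp5. Etv5, an ETS factor induced by FGF signalling, gave 1.70 ± 0.08, and Spred2, an inhibitor of ERK signalling, 0.95 ± 0.08. Measured from day 2, 6 of the 17 were higher and 5 lower, and Etv5 gave 0.08 and was not called. Of 17 Nodal and BMP genes, 8 were higher and 6 lower. The ligand Nodal (1.78 ± 0.11) and its inhibitor Lefty1 (2.33 ± 0.18) fell less far, and the ligand Bmp7 (-1.74 ± 0.26) rose less far. Wnt target and feedback genes were higher in 5 of 15 cases, Dkk1, Wnt8a, Lgr5, Sp5 and Lef1, and lower in 4, Wnt3, Notum, Nkd1 and Znrf3. Lgr5 was not called without WT day 0 replicate 2 (1.23) or fullKO day 0 replicate 1 (1.13), nor Nkd1 without WT day 0 replicate 2 (-0.53) or fullKO day 0 replicate 2 (-0.29), nor Sp5 without fullKO day 0 replicate 2 (0.90). Imprinted genes were higher in 9 of 27 cases, with 5 lower: Nnat, Slc38a4, Gnas, Impact and Plagl1, of which Plagl1 was not called without fullKO day 0 replicate 1 (-0.36). Among them Peg3, a paternally expressed zinc finger gene, was at 142, 156 and 157 CPM in WT and 55.6 and 55.3 CPM in fullKO at day 0 and ended at 2463 to 2679 CPM and 2083 to 2329 CPM (1.24 ± 0.09). Neural progenitor genes were higher in 7 of 18 cases, with 4 lower, with a median of 0.80, or 0.16 with those at 0 in a group set at their floor. The 4 lower were Msx2, Nes, Pax6 and Sox1. Pax6 was not called without fullKO day 0 replicate 2 (-0.48), nor Sox1 without WT day 4 replicate 3 (-0.51), fullKO day 0 replicate 2 (-0.55) or fullKO day 4 replicate 3 (-0.52).

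Genes of the 2-cell-like state, a rare state that recalls the early embryo, were higher in 5 of 19 cases, Zscan4a, Zscan4c, Zscan4d, Usp17la and Usp17le, and lower in 1, Eif1a. These 6 of 19 are a share near the 35.2% called over all genes. The list stood above WT throughout, with a median difference between fullKO and WT of 2.57 at day 0 and 3.58 at day 4. At day 2, 17 of the 19 were above WT and none below. Measured from day 2, 10 were higher and 1 lower, which is 57.9% called against 23.6% of all genes. Zscan4d was at 0.467, 1.23 and 0.726 CPM in WT at day 0 and 2.90, 3.39 and 2.35 CPM at day 4, and at 3.75 and 4.49 CPM and 42.3, 41.9 and 41.2 CPM in fullKO (1.52 ± 0.32, adjusted p = 0.000191). Zscan4c gave 1.58 ± 0.38, and Zscan4a was not called without WT day 0 replicate 3 (1.03). Usp17la was not called without any 1 of 7 libraries, all but WT day 0 replicate 1, WT day 4 replicate 2, fullKO day 0 replicate 1 and fullKO day 4 replicate 1 (0.74 to 1.13). Copies of these families are nearly identical, and how reads were shared among them is not known here, which leaves single members uncertain. Germline genes were higher in 7 of 16 cases, with 2 lower, Rhox5 and Ddx4. The shares over all genes, 19.5% higher and 15.7% lower, are the background for this list and those that follow. Cholesterol synthesis genes were higher in 6 of 20 and lower in 3, Msmo1, Hsd17b7 and Srebf2. Srebf2 was not called without any 1 of WT day 0 replicate 3, WT day 4 replicates 2 and 3, both fullKO libraries of day 0 and fullKO day 4 replicate 1 (-0.16 to -0.19). Glycolysis genes were higher in 9 of 19 and lower in 4, Hk1, Slc2a1, Hk2 and Pkm, of which Pkm was not called without fullKO day 0 replicate 1 (-0.14). With day 2 as the start the glycolysis list leaned the other way, with 4 higher and 10 lower and a median of -0.219. That is 73.7% called, against 23.6% of all genes from that start. Targets of ATF4 were higher in 3 of 15, Slc7a3, Mthfd2 and Psph, and lower in 5, Ddit3, Vldlr, Chac1, Sesn2 and Atf4. Chac1 was not called without any 1 of WT day 0 replicate 3, WT day 4 replicates 1 and 2, fullKO day 0 replicate 2 and fullKO day 4 replicate 1 (-0.64 to -0.81). Mthfd2 was not called without WT day 4 replicate 2 (0.26) or fullKO day 4 replicate 1 (0.33), nor Psph without any 1 of WT day 0 replicate 2, WT day 4 replicates 2 and 3, fullKO day 0 replicate 1 and fullKO day 4 replicates 1 and 3 (0.23 to 0.31). Mesoderm and endoderm genes were called in 4 of 13 cases, a share below the 35.2% over all genes. They were higher for Foxf1, Eomes and Foxa1 and lower for Gsc. Foxa1 was not called without WT day 0 replicate 3 (1.08) or fullKO day 0 replicate 2 (0.70), nor Gsc without any 1 of WT day 0 replicates 1 and 3, WT day 4 replicate 1, fullKO day 0 replicate 2 and fullKO day 4 replicates 2 and 3 (-2.24 to -3.0).

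**Figure D5:**
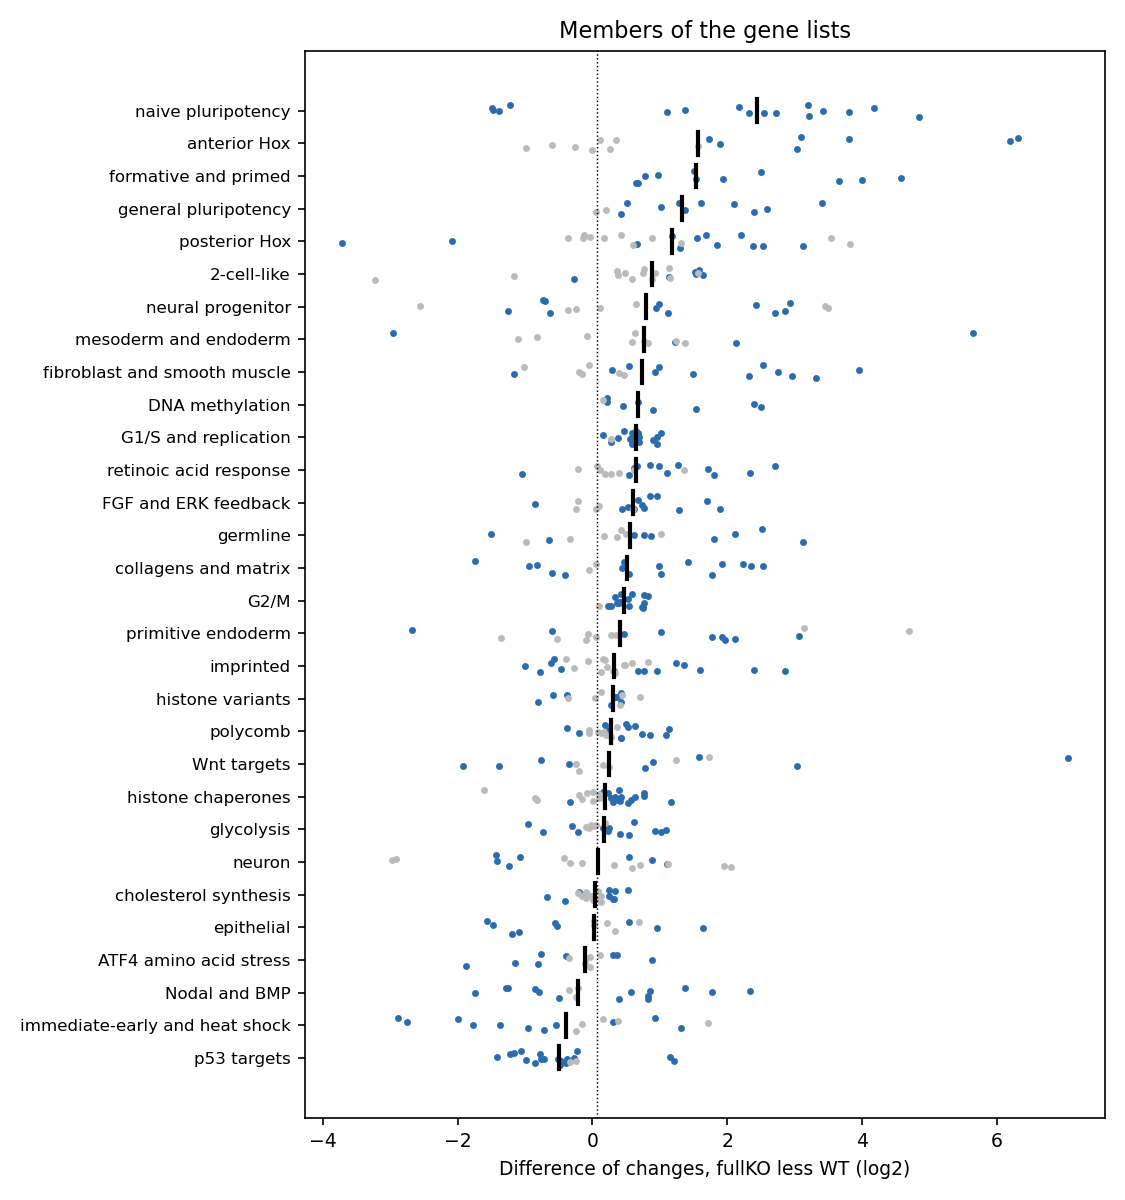
Each point is a member of a gene list, placed by its difference of changes on the log2 scale (x axis), blue where called and grey where not; black bars are list medians and the dotted line is the median over all genes tested, 0.0683. Naive pluripotency genes and p53 targets lie at opposite ends, with medians of 2.44 and -0.49, and the G1/S and G2/M lists are narrow. Genes with no count in a group are drawn at their fitted value, which is not a bound.

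The alphaKO cells were set beside fullKO for the same genes. Both comparisons with WT use the same WT libraries, so likeness between them is no evidence of its own, but the difference between the 2 knockouts uses no WT library. That difference was called for 5138 of 18412 genes (27.9%). For Pou5f1 the difference of changes from WT was 3.41 in fullKO and 3.15 in alphaKO (0.25 between them, adjusted p = 0.0244), and for Pola1 1.01 and 1.0 (0.01, adjusted p = 0.923). For Perp it was -1.42 and -2.63 (1.21, adjusted p = 5.72e-07), and for Cdkn1a -0.72 and -1.37 (0.64, adjusted p = 7.76e-05), so these rose less in alphaKO than in fullKO. Cubn gave 3.07 in fullKO and 0.37 in alphaKO (2.69, adjusted p = 2.06e-11), and Pla2r1 4.17 and 0.27 (3.90, adjusted p = 9.68e-10). Mras gave -3.10 and -3.25, with 0.14 between them (adjusted p = 0.496).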

How the data were processed

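Gene counts were taken as deposited, from 1 table of whole-number counts for 55471 genes and 26 RNA-seq libraries. FastQC, STAR 2.7.1a and the mm10 build are named per the submitters' processing notes. What counted the reads, with which strand setting and gene models, is not given in the sources used here; overlapping, antisense and near-identical genes are therefore uncertain. Ensembl IDs were matched to GENCODE M21 (GRCm38) for 55230 genes, and promoters came from RefSeq GRCm38.p6.

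Counts were fitted in edgeR 4.0.16 (R 4.3.3) with TMM scaling, filterByExpr (18412 genes) and a quasi-likelihood model of 9 group means over all 26 libraries, which pools the spread over 17 residual degrees of freedom. Adjusted p-values are Benjamini-Hochberg values over all genes tested, called under 0.05. The fit was tested on simulated data. Groups came from the library titles.

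Sorting used the calls of the difference of changes and of each genotype's own change. A gene at 0 counts throughout a group was given a floor of 3 counts over that group. Counting intervals are 95% and cover counting error only.

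Genes named by rule were Nap1l1, the 6 with the largest difference in each sorted group and direction (4 where WT had no call) among protein-coding genes averaging 5 CPM or more in 1 of the 4 groups, and up to 4 called members of each list. Others were chosen after their values were seen. A few named results are not reported here. Members and lists were chosen with earlier results of these data known.

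Same-numbered replicates of different groups did not deviate together (r -0.0267 to 0.0209 over 15 pairs), so no pairing by number was seen. Deviations were taken from means of 2 or 3 libraries, so this check cannot settle whether the numbers pair the libraries. Alternatives were DESeq2 1.42.0, RLE scaling, other filters, the 11 libraries alone, a replicate block, a robust fit, another prior count, a threshold on the change, each library left out, and, added after seeing the data, day 2 in place of day 0.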

Additional observations from a re-analysis of the deposited data

Results flagged for a closer look

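The 12 genes given here had a change over 4 days that was called in both genotypes with opposite signs, and the difference of the changes was itself tested and called. They are the largest of the 430 reversed genes by the rule for named genes, so their size is a description. For 6 of them the level fell in WT and rose in fullKO, with differences of changes of 5.53 for Frem1, 5.24 for Heph, 5.15 for Enpp2, 4.17 for Gfra1, 4.16 for Adamts12 and 4.00 for Sox3.

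Heph, the copper oxidase hephaestin, was at 0.642, 1.23 and 0.66 CPM in WT at day 0 and 0.218, 0 and 0.46 CPM at day 4. In fullKO it went from 0.595 and 0.528 CPM to 6.32, 5.53 and 6.09 CPM, so nearly all of its difference arose at the later day. Adamts12, a secreted metalloprotease, went from 7.88, 9.9 and 7.99 CPM to 4.79, 4.29 and 4.94 CPM in WT and from 0.476 and 0.859 CPM to 6.61, 5.89 and 6.88 CPM in fullKO. Enpp2, the enzyme autotaxin, fell from 13.6, 12.4 and 13.2 CPM to 0.87, 0.655 and 0.345 CPM in WT. Its rise in fullKO was small, from 1.25 and 1.45 CPM to 2.32, 2.94 and 1.47 CPM (edgeR adjusted p = 0.048).

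For the other 6 the level rose in WT and fell in fullKO, with differences of -5.93 for Fgf18, -3.64 for Crtac1, -3.21 for Mapt, -3.10 for Mras, -2.92 for Pdgfa and -2.88 for Cspg5. Crtac1, a matrix protein of cartilage, was at 10.2 and 8.26 CPM in fullKO at day 0 and 0.811, 0.878 and 1.97 CPM at day 4. Its rise in WT was small, from 1.46, 0.984 and 1.78 CPM to 3.19, 2.2 and 1.67 CPM (edgeR adjusted p = 0.0317). Cspg5, a proteoglycan of neural tissue, rose from 2.34, 1.84 and 0.792 CPM to 4.79, 6.13 and 6.03 CPM in WT and fell from 4.22 and 4.82 CPM to 2.03, 2.17 and 1.97 CPM in fullKO. With day 2 as the start, Crtac1 (-1.12), Cspg5 (-0.84) and Enpp2 (0.61) were not called.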

How the results depend on the processing

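Counts of genes moved little with the tool. Against 6480 calls, DESeq2 gave 6450, RLE scaling 6477 and a robust fit 6459. With no low-count filter 5896 of 37013 genes were called, and with the stricter filter 6091 of 12153. With the 11 libraries alone 6401 were called, of which 61.1% were higher in place of 55.4%. The replicate block gave 6361 calls, 6286 of them shared, and the block within genotype gave 6181; none of 15 same-numbered pairs had a correlation over 0.1. Of 235 genes followed singly, the replicate block ended the call of 2 (Fas and Hoxc12) and the block within genotype of 7 (also Ccl2, Gsc, Phc2, Srebf2 and Syt6), and no other setting but the later start turned a called direction. Asking the WT change, and for reversed genes the fullKO change, to reach 1 on the log2 scale left 669 exaggerated and 61 reversed genes.

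Leaving out each of the 11 libraries in turn gave 3072 to 3473 genes higher and 2185 to 2799 lower, of which 1266 to 1404 and 529 to 626 reached 1 on the log2 scale. The sorted counts were then 3451 to 3867 blunted, 1072 to 1314 exaggerated and 348 to 427 reversed. The 2 fullKO libraries of day 0 gave the fewest calls when left out, 5453 without replicate 1 and 5424 without replicate 2.

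Day 2 as the start, chosen after the fibroblast markers were seen, moved the most: 726 genes were higher and 206 lower by at least 1 on the log2 scale, and 2074 were blunted. Of the 235 genes 128 stayed on their side of the threshold in the same direction, 70 lost the call, 3 gained it (Cyp26a1, Gata6 and Tet3) and 34 turned. Those that turned positive were Adgrb1 (0.41), Atf3 (0.54), Atf4 (0.04), Cdkn1a (0.17), Chac1 (0.23), Cldn4 (0.22), Cnn1 (0.85), Dsp (0.82), Gnas (0.25), H2afy2 (0.58), Hoxc13 (0.06), Krt19 (0.50), Krt8 (0.47), Lama1 (0.94), Nes (0.42), Nkd1 (0.05), Phc2 (0.28), Plagl1 (0.06), Srebf2 (0.11), Tgm2 (0.63), Ubn1 (0.13) and Znrf3 (0.0016). Those that turned negative were Col4a2 (-0.01), Csn3 (-0.21), Dnmt3a (-0.92), Foxd3 (-1.27), Gap43 (-0.15), H19 (-0.02), Hoxa5 (-0.22), Jarid2 (-0.01), Nefl (-0.35), Pdgfra (-0.38), Phc1 (-0.0044) and Tdgf1 (-1.24). Many of these values lie near 0, and the cause was not tested. Depth limits genes with few counts at day 0, such as Cyp26a1 (1.35 ± 1.22).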

Other observations

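At the edge of the threshold, Cfap99 lay just inside with a difference of changes of 3.33 ± 1.35 (edgeR adjusted p = 0.049922) and Ski just outside with 0.143 ± 0.0581 (adjusted p = 0.050022). Among chromosomes, chromosome 1 stood apart in the level of fullKO relative to WT, with a median over its 1115 genes tested of 0.27 at day 0 and 0.343 at day 4 on the log2 scale. The other chromosomes had medians of -0.0874 (X) to 0.0168 (19) at day 0 and -0.0255 (8) to 0.0679 (13) at day 4. For chromosome 1 the median difference of changes was 0.0707, beside 0.0683 over all genes, and 36.9% of its genes were called.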
